A study of Mus musculus with 30 samples.

Results

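The cytosolic ribosomal protein genes of the mouse were chosen by symbol: every protein-coding gene of chromosomes 1 to 19 whose symbol begins with Rpl or Rps and goes on as a ribosomal protein name does, without the 8 genes of S6 kinases. The rule took 87 of 20558 protein-coding genes. Of these, 53 carry a large subunit symbol and 34 a small subunit symbol. The core of the family, 73 genes of which 43 are large subunit and 30 small subunit genes, encodes the ribosomal proteins themselves. A further 10 are paralog copies, 2 are coding genes that still bear a pseudogene name (Rpl34-ps1 and Rpl31-ps12), and 2 encode no ribosomal protein (Rps19bp1, named for a binding partner of Rps19, and Rps23rg1). Rpl10, Rpl36a, Rpl39 and Rps4x lie on chromosome X and were not analysed here.

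The study followed old and new histones through DNA replication in wild-type and MCM2-2A mouse embryonic stem cells, and the part of it used here is 1 library: OK-seq of wild-type E14TG2a cells labelled with 10 µM EdU, a thymidine analogue, for 2 min. E14TG2a is an established mouse embryonic stem cell line, kept here in 2i and LIF, which hold the cells in an undifferentiated state. The other 29 of the 30 samples belong to the remaining groups and were not analysed here, so no comparison between genotypes was made and there was no replicate error. OK-seq reads the strand of Okazaki fragments, the short pieces in which the lagging strand is made, and thereby the direction in which replication forks run. The deposited list gives 2844 initiation zones, the stretches where forks on average begin to run apart. Each zone has a breakpoint, a bin of 1 kb, and an edge on either side at most 100 kb from it. The depth of the library is unknown. Since the list holds positions only, nothing below measures the expression of a gene, the strength of a zone or its time of firing.

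Ribosomal proteins form, with ribosomal RNA, the large and the small subunit of the ribosome, and cells need them in near equal amounts. Their genes are short, scattered over the chromosomes and strongly transcribed in growing cells, and many of their messenger RNAs begin with a run of pyrimidines, the terminal oligopyrimidine (TOP) tract, through which mTOR signalling sets their translation. In mammalian cells initiation zones often lie beside transcribed genes, and a fork that leaves a zone runs with the transcription of a gene that points away from the breakpoint and against that of a gene that points toward it.

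Most ribosomal protein genes had an end inside an initiation zone: 49 of 87, or 56.3% (Wilson 95% interval 45.9 to 66.3%), against 6664 of 20558 protein-coding genes, or 32.4% (31.8 to 33.1%), a total that includes the family. The intervals cover counting error only, and they treat genes as independent, which neighbours in a shared zone are not. The family had been picked out because many of its genes lay at these zones, so all its positions against the list are a description and carry no test. In the large subunit 27 of 53 genes (50.9%, 37.9 to 63.9%) had an end inside a zone, and in the small subunit 22 of 34 (64.7%, 47.9 to 78.5%). The large minus small difference was -13.8 points, with a 95% interval from counting error of -32.8 to 7.43 points. That interval includes no difference between the subunits, and the difference was not tested. In the core alone the shares were 22 of 43 (51.2%) for the large and 19 of 30 (63.3%) for the small subunit.

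**Figure D1:**
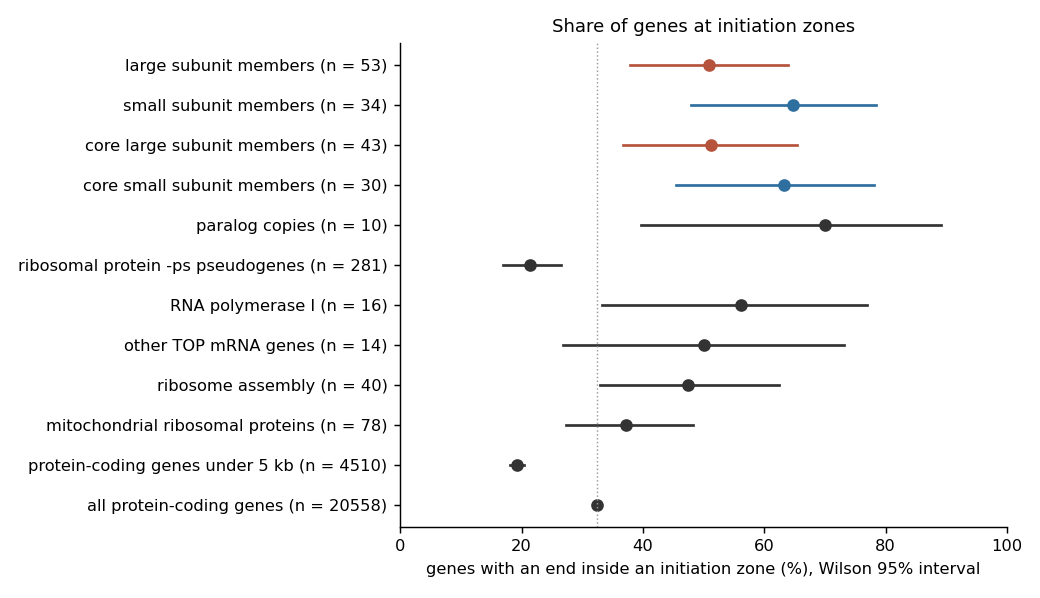
Share of genes with an end inside an initiation zone, in percent, for each gene group, with Wilson 95% intervals as lines and the number of genes in parentheses. The dotted line marks all protein-coding genes at 32.4%; the large subunit point lies at 50.9%, the small subunit point at 64.7% and the family's -ps pseudogenes at 21.4%.

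Within 20 kb of a zone lay 55 of the 87 genes (63.2%), against 38.5% of all protein-coding genes. At the far end, 19 ribosomal protein genes (21.8%) were more than 100 kb from any zone, against 44.1% of all protein-coding genes, and 3 (3.45%) were more than 500 kb away, against 10.8%. The median distance from the nearer gene end to the nearest breakpoint was 39.15 kb for the family (95% interval of the median 26.17 to 86.45 kb) and 129.1 kb for all protein-coding genes (125.9 to 131.8 kb). It was 40.08 kb in the large subunit and 29.73 kb in the small subunit, with intervals of 28.08 to 111.4 kb and 17.26 to 86.45 kb that overlap over most of their length. Within 100 kb of a breakpoint lay 32 of 53 large subunit genes (60.4%) and 25 of 34 small subunit genes (73.5%), against 43.0% of all protein-coding genes.

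**Figure D2:**
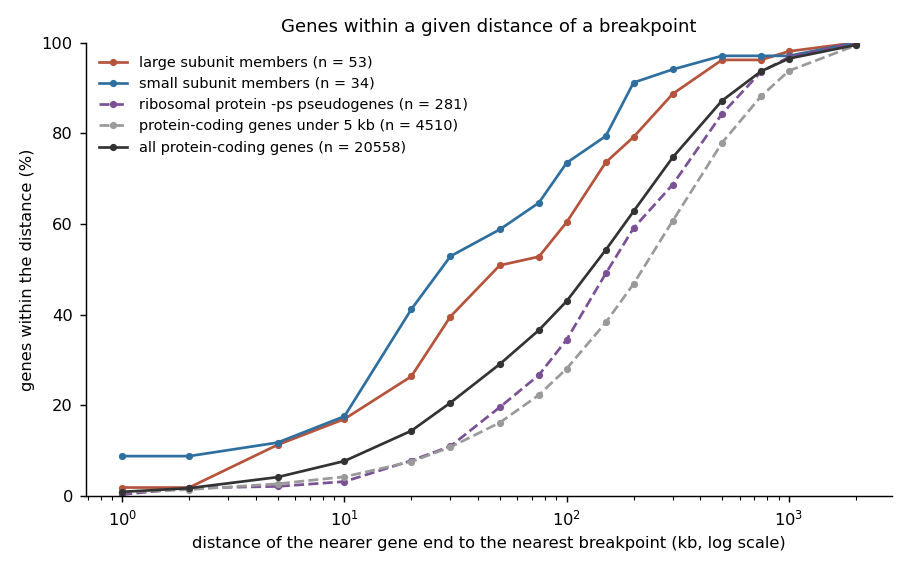
Share of genes, in percent, whose nearer end lies within a given distance of the nearest breakpoint, in kb on a log scale, for large and small subunit genes, the family's -ps pseudogenes, protein-coding genes under 5 kb long and all protein-coding genes. At 100 kb the curves stand at 60.4% for the large subunit, 73.5% for the small subunit, 34.5% for the pseudogenes, 28.1% for the short genes and 43.0% for all protein-coding genes.

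The family's share also stood above that of all protein-coding genes within each class of gene length it occupies and within each class of gene density. Ribosomal protein genes had a median length of 3.183 kb, against 17.58 kb for all protein-coding genes, and a median of 10 neighbour genes within 250 kb, against 9. Among genes under 5 kb, 41 of 71 ribosomal protein genes (57.7%, 46.2 to 68.5%) had an end inside a zone, against 867 of 4510 protein-coding genes of that length (19.2%, 18.1 to 20.4%). Short genes as a whole thus had a lower share at zones than protein-coding genes in general, and short ribosomal protein genes a higher one. Among genes of 5 to 20 kb the shares were 8 of 16 (50.0%) and 32.9%, and no member of the family was over 20 kb long. In surroundings of 0 to 6 neighbours the shares were 12 of 22 ribosomal protein genes (54.5%) and 35.3% of all, with 7 to 13 neighbours 19 of 32 (59.4%) and 33.3%, and with 14 to 45 neighbours 18 of 33 (54.5%) and 28.1%. Within the genes under 5 kb the family stood at 60.0% against 21.6% in the sparse surroundings, at 58.3% against 20.2% in the middle class and at 55.6% against 18.0% in the dense one. Among genes of 5 to 20 kb the counts per density class were small, at 0 of 2 against 32.4% in the sparse, 5 of 8 (62.5%) against 32.9% in the middle and 3 of 6 (50.0%) against 33.3% in the dense class. Other properties in which the family differs from most genes, such as the level of transcription, were not measured here.

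Because the genes are short, almost every one inside a zone was inside whole. The entire gene body lay within a zone for 48 of the 87 (55.2%), against 18.7% of all protein-coding genes. The 49 genes fell evenly on both sides, with 25 to the left and 24 to the right of the breakpoint in genome coordinates. Their nearer ends lay at a median of 33.4% of the way from the breakpoint to the edge, and 37 of the 49 (75.5%) were in the inner 50% of their arm. Over all protein-coding genes inside zones, measured in the same way, the median was 42.3% and the share in the inner 50% of the arm was 58.9%, and over those under 5 kb long they were 46.3% and 54.6%. Of the 49, 15 (30.6%) had an end within 10 kb of the breakpoint, against 23.8% of all protein-coding genes inside zones. This was 9 of 27 in the large subunit (33.3%) and 6 of 22 in the small subunit (27.3%), shares near the 23.8% of all such genes.

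**Figure D3:**
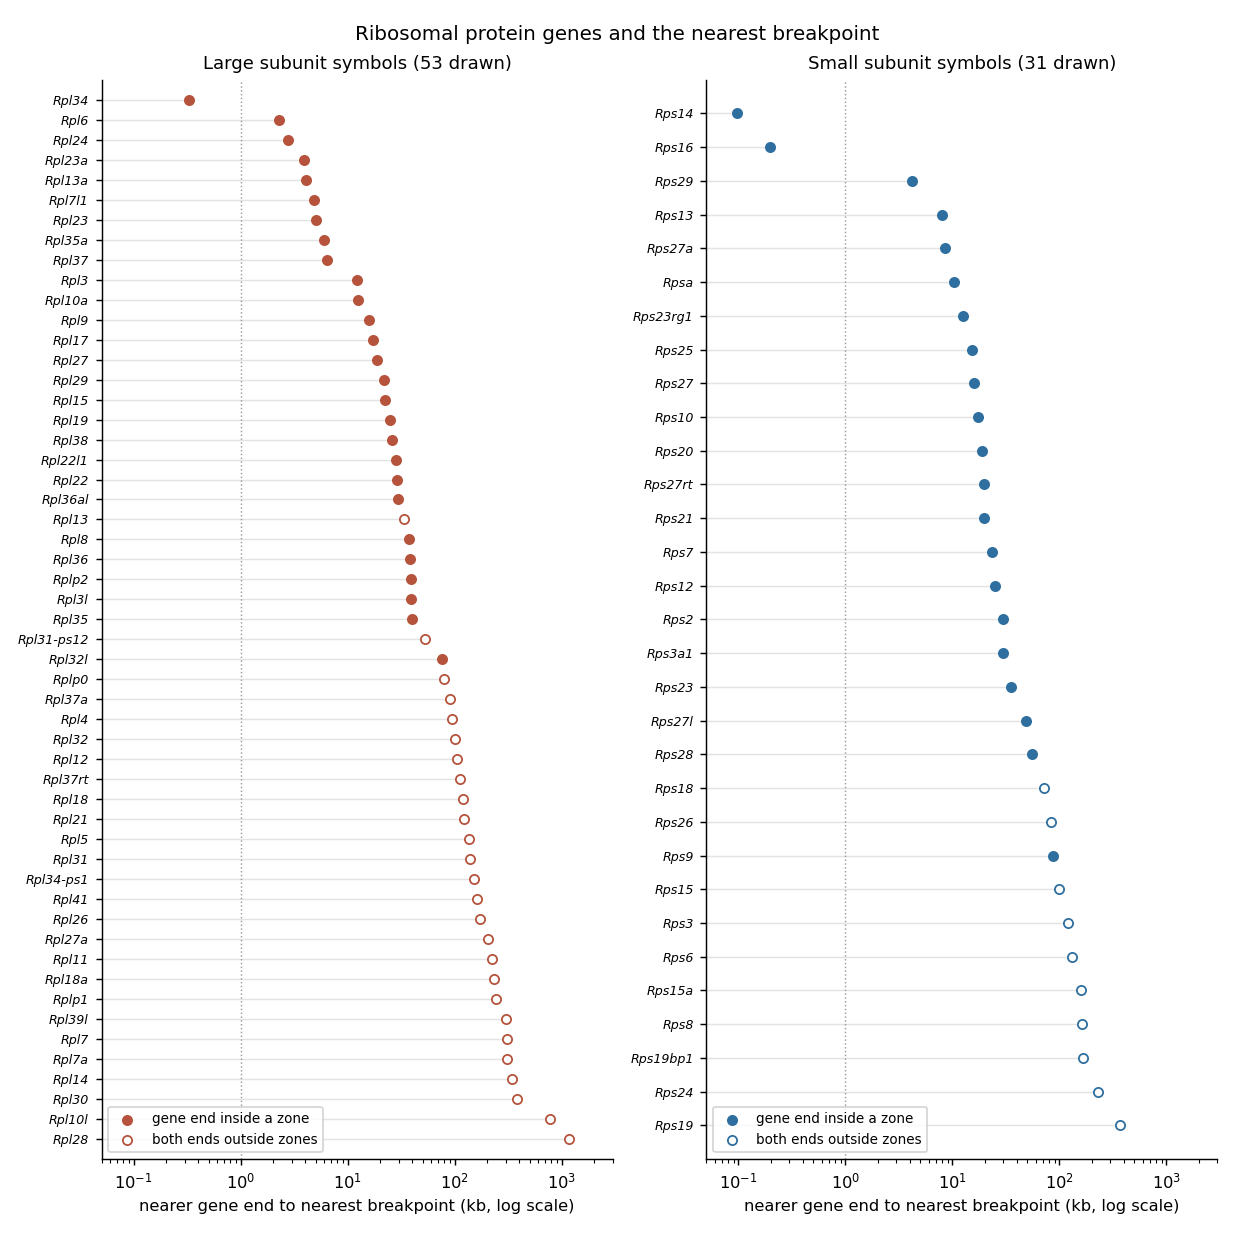
Distance from the nearer gene end to the nearest breakpoint, in kb on a log scale, for 53 large subunit genes (left) and 31 small subunit genes (right), ordered by distance. Filled points are genes with an end inside a zone and open points genes with both ends outside; the dotted line marks 1 kb, and Rpl34, Rps14 and Rps16 lie to its left.

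A total of 10 ribosomal protein genes had an end within 5 kb of a breakpoint. They were 6 of 53 large subunit genes (11.3%) and 4 of 34 small subunit genes (11.8%). Over all protein-coding genes the share was 4.18%, and over those under 5 kb long it was 2.71%. In the large subunit the nearest was Rpl34, at chr3:130726827-130730398 (mm10), with an end 0.327 kb from the breakpoint. Rpl6 on chromosome 5 followed at 2.259 kb and Rpl24, at chr16:55966275-55971437, at 2.775 kb; RPL24 forms a bridge between the subunits, and a hypomorphic allele of its gene is the mouse Belly spot and tail mutation. Rpl23a on chromosome 11, whose protein sits at the exit of the peptide tunnel where the signal recognition particle docks, lay 3.916 kb away. Rpl13a on chromosome 7, whose human protein also acts outside the ribosome in silencing inflammatory messenger RNAs, lay 4.063 kb away. Rpl7l1 on chromosome 17, a copy of Rpl7, lay 4.844 kb away.

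Among the small subunit genes, Rps14, at chr18:60774596-60778546, whose human counterpart is lost in the 5q- syndrome of the bone marrow, lay 0.096 kb away. Rps16, at chr7:28350689-28352698, ended 0.198 kb past the breakpoint, taken as the middle of its bin. It was the only one of the 87 genes with such a point in its body (1.15%). The share was 4.02% over all protein-coding genes and 0.643% over those under 5 kb long. Rps29, at chr12:69157722-69159186, which encodes a zinc finger protein of the small subunit, lay 4.222 kb away. The breakpoint is a bin of 1 kb, so the order of these distances below 1 kb cannot be resolved. Nor can it be told whether the bodies of Rps14 and Rpl34 also hold the breakpoint.

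**Figure D4:**
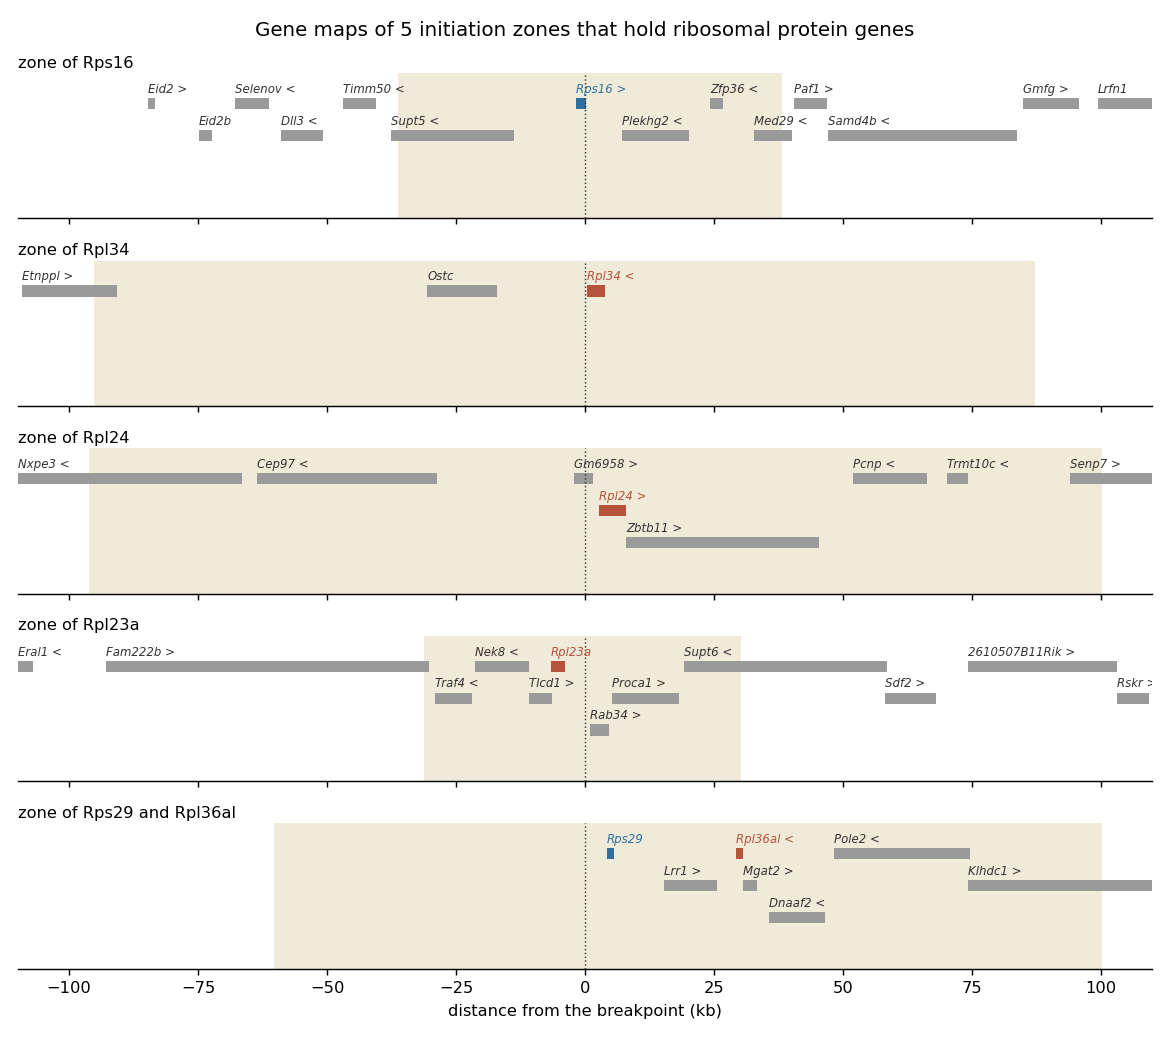
Protein-coding gene bodies around 5 breakpoints, drawn by their distance from the breakpoint in kb, with the zone shaded, large subunit genes in red, small subunit genes in blue and other protein-coding genes in grey; the signs > and < give the direction of transcription where the strand is known. Rps16 lies across its breakpoint, Rpl34 and Rpl24 lie 0.327 and 2.775 kb to the right of theirs, and the zone of Rps29 and Rpl36al also holds Mgat2 and Pole2.

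The start of transcription, known for 66 of the 87 genes from the RefSeq promoter table of GRCm38.p6 (the build called mm10), lay within 5 kb of a breakpoint in 4 genes. Their start regions are shown first, as the sequence nearest to where forks part, and those of Rpl28 and Rps19 after them, as the genes with a known start that lay farthest from any zone in each subunit among the core. Each runs from 60 bases before to 20 bases from the start of transcription on the strand of the gene, and capitals mark a run of at least 5 C or T that begins with C within 10 bases of the start, the letters of a TOP tract. The windows are chr7:28350629-28350708 on the plus strand for Rps16, chr16:55966215-55966294 on the plus strand for Rpl24, chr3:130730379-130730458 on the minus strand for Rpl34, chr17:46782637-46782716 on the minus strand for Rpl7l1, chr7:4792905-4792984 on the plus strand for Rpl28 and chr7:24884532-24884611 on the plus strand for Rps19.
Rps16: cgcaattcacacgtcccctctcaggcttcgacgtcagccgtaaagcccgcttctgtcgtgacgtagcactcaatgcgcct
Rpl24: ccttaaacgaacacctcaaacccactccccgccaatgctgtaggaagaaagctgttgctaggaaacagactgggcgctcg
Rpl34: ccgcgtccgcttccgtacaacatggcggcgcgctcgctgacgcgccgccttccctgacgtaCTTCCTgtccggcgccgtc
Rpl7l1: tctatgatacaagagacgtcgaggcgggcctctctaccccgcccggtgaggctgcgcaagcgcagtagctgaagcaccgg
Rpl28: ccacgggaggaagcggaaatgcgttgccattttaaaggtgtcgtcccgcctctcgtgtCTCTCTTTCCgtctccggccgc
Rps19: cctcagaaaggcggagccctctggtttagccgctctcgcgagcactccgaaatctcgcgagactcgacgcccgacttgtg
Of the 4 starts within 5 kb of a breakpoint, Rpl34 carried such a run, of 6 bases from position 2. Of the other two, Rpl28 carried one of 10 bases that began 2 bases before the listed start. No capitals in a window means only that these letters are not within 10 bases of the start the table lists.

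Over all 66 listed starts, 37 (56.1%) carried the letters of a TOP tract, against 31.6% of 16457 protein-coding genes with a promoter in the table. The run was at a median 8 bases long, against 6 in all genes. The share was 23 of 38 (60.5%) for ribosomal protein genes inside zones and 14 of 28 (50.0%) for those outside. In the core it was 17 of 30 genes inside zones (56.7%) and 12 of 23 outside (52.2%), and 16 of 31 in the large subunit (51.6%) against 13 of 22 in the small subunit (59.1%). In the promoter window of 300 bases, of which 250 lie before the start, CCGGAAG, the letters bound by ETS family factors, occurred on either strand in 24 of 66 promoters (36.4%), against 12.3% of all. AAGATGGC, the core letters of the YY1 motif, occurred on either strand in 5 (7.58%), against 3.23%, and GGGCGG, the GC box, in 37 (56.1%), against 47.3%. Inside zones CCGGAAG was present in 15 of 38 promoters (39.5%), and outside zones in 9 of 28 (32.1%). The median GC content of the windows was 57.7% in the family and 56.7% in all genes. The letters are counted as text, and no binding was measured.

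Inside zones most large subunit genes were transcribed toward the breakpoint and most small subunit genes away from it. Strand was known for 38 of the 49 genes inside zones. Of 21 large subunit genes, 7 (33.3%, 17.2 to 54.6%) were transcribed away from the breakpoint, and of 17 small subunit genes 13 (76.5%, 52.7 to 90.4%), against 3138 of 5300 protein-coding genes inside zones (59.2%). The large minus small difference was -43.1 points, with an interval of -64.5 to -11.3 points from counting error. In the core the counts were 5 of 16 for the large subunit (31.2%) and 12 of 14 for the small subunit (85.7%), a difference of -54.5 points (-74.4 to -19.1). Both subunits together gave 20 of 38 away (52.6%, 37.3 to 67.5%), close to the 50.0% of the 702 genes under 5 kb inside zones with a known strand. Outside zones the subunits stood side by side, at 9 of 19 large subunit genes (47.4%) and 4 of 9 small subunit genes (44.4%), against 49.3% of all protein-coding genes outside. Among genes that start within 20 kb of the breakpoint, 4 of 10 large subunit genes (40.0%) and 6 of 8 small subunit genes pointed away. Over all protein-coding genes it was 75.1%, and the small subunit did not stand above that share. Direction was read from the middle of the gene, however. A long gene that starts so near often has its middle past the breakpoint and then counts as away. The 75.1% is therefore not a like comparison for these short genes, and no share of short genes was taken at this cut. No test was made, 11 genes inside zones (6 large and 5 small) had no strand here, and with 1 library the split has no replicate check.

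**Figure D5:**
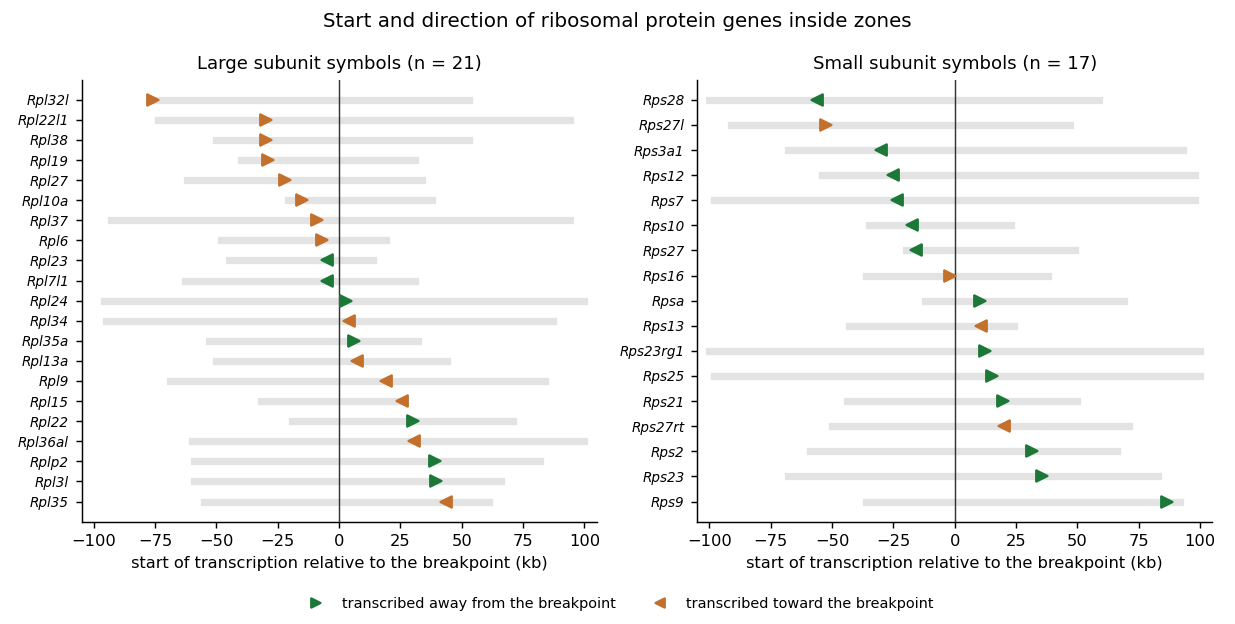
Start of transcription relative to the breakpoint, in kb along genome coordinates, for the 21 large subunit genes (left) and 17 small subunit genes (right) inside zones whose strand is known. Grey bars are the arms of each zone and arrowheads point in the direction of transcription, green away from the breakpoint and orange toward it; 7 large and 13 small subunit genes are green.

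The large subunit genes that point away from their breakpoint were Rpl22, Rpl23, Rpl24, Rpl35a, Rplp2, Rpl3l and Rpl7l1. Their starts lay at a median of 5.953 kb from the breakpoint, between 2.775 kb for Rpl24 and 39.33 kb for Rpl3l. The 14 that point toward it started at a median of 23.87 kb, between 3.898 kb for Rpl34 and 76.06 kb for Rpl32l. Among small subunit genes the 13 that point away were Rps2, Rps3a1, Rps7, Rps9, Rps10, Rps12, Rps21, Rps23, Rps25, Rps27, Rps28, Rpsa and Rps23rg1, with starts between 10.27 kb for Rpsa and 86.54 kb for Rps9 and a median of 23.55 kb. The 4 that point toward it were Rps13, Rps16, Rps27l and Rps27rt, with starts between 1.811 kb for Rps16 and 52.41 kb for Rps27l. The ranges of the groups overlap, and the groups are small. Over all protein-coding genes inside zones the median was 24.62 kb for those that point away and 46.57 kb for those that point toward. Over those under 5 kb long the medians were 29.27 and 29.66 kb.

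The ribosomal stalk, which recruits the elongation factors, was split between locations. Rplp2 lay inside a zone, 39.15 kb from the breakpoint, and pointed away from it. Rplp0 lay 14.47 kb outside the nearest zone and Rplp1 206.3 kb outside. Rpsa, the small subunit protein also known as the laminin receptor, lay inside a zone 10.27 kb from its breakpoint. A few genes with well known roles outside the listing rule were added after their values were seen. Rpl5 and Rpl11, whose proteins bind the 5S ribosomal RNA and restrain Mdm2 when ribosome assembly is disturbed, lay 96.0 and 123.6 kb outside zones. Rps6, the target of the S6 kinases, lay 83.1 kb outside. Rps27a, which encodes ubiquitin fused to a ribosomal protein, had an end inside a zone 8.46 kb from the breakpoint.

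Both subunits had genes far from any zone. In the large subunit the farthest were Rpl28 at 1083 kb, Rpl10l at 757.6 kb, Rpl30 at 329.5 kb and Rpl14 at 323.3 kb. Rpl10l is an intronless copy of the X-linked Rpl10 that is expressed in male germ cells. In the small subunit Rps19 lay at 286.6 kb and Rps24 at 180.7 kb, and both are genes whose human counterparts are mutated in Diamond-Blackfan anaemia. Chromosome 7, which holds Rpl28 and Rps19, had the most ribosomal protein genes of any chromosome, 14, of which 6 had an end inside a zone. Its share over all protein-coding genes was 25.2%, the lowest of the 19 chromosomes.

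At the edge of zones the call rests on short distances. Just inside, measured from the gene end nearer to the edge, lay Rpl32l at 0.029 kb, Rpl15 at 1.014 kb and Rps9 at 3.103 kb. Just outside lay Rpl31-ps12 at 2.805 kb, Rpl32 at 3.514 kb and Rpl37a at 6.188 kb. With bins of 1 kb, Rpl32l is the 1 gene whose side could turn with a shift of a single bin.

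The 49 genes fell into 46 zones, or 1.62% of the 2844. These zones were no wider than others, with a median of 111 kb against 116 kb for all 2395 zones that hold an end of a protein-coding gene, but they were richer in genes, with a median of 5 genes against 2. The nearest other breakpoint lay at a median of 214 kb from theirs, against 336 kb. An arm at the limit of 100 kb occurred in 5 of the 46 (10.9%), against 10.5% of the zones that hold a gene end. Both edges were shared with another entry of the list for 1 of the 46 and for 122 of the 2844. Each entry was counted as a zone. Zones are picked here through their genes, so a zone with many genes is picked more readily.

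Some zones held a pair of ribosomal protein genes, 1 of either subunit. Rpl36al, at chr12:69182734-69184067, and Rps29 lay 29.23 and 4.222 kb to the same side of a breakpoint, in a zone that is 160 kb wide from edge bin to edge bin and touches 7 protein-coding genes, at chr12:69093001-69254000. Rpl3l, at chr17:24727826-24736143, and Rps2, at chr17:24718121-24721927, lay 39.33 and 29.62 kb to the same side, in a zone of 125 kb with 15 genes at chr17:24629001-24755000. Counting genes less than 500 kb apart as 1 place, the family occupied 78 places, of which 9 held 2 genes each. The family was present on 18 of the 19 chromosomes, with none on chromosome 19. On chromosome 17, 7 of 8 genes had an end inside a zone, on chromosome 11 it was 6 of 7 and on chromosome 3 it was 4 of 4, while on chromosome 1 it was 0 of 3 and on chromosome 6 it was 0 of 2. Over all protein-coding genes the shares on these chromosomes were 34.7% (chromosome 17), 32.5% (11), 36.9% (3), 33.6% (1) and 27.7% (6), and with so few members per chromosome the counts are given as a listing.

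Many ribosomal protein genes carry small nucleolar RNA (snoRNA) genes in their introns, which guide the modification of ribosomal RNA. In the annotation 28 of the 87 held 57 of the 1276 snoRNA genes. Of these hosts 16 of 28 (57.1%) had an end inside a zone, and of the genes without a snoRNA gene 33 of 59 (55.9%). Hosts inside zones lay nearer to the breakpoint, with 8 of 16 within 10 kb (50.0%) against 7 of 33 (21.2%) and medians of 9.136 and 21.93 kb. Over all protein-coding genes inside zones the share within 10 kb was 23.8% and the median 23.02 kb, values near those of the ribosomal protein genes without a snoRNA gene. Among the 8 hosts within 10 kb of the breakpoint were Rpl6, Rpl13a, Rpl23, Rpl23a, Rpl37, Rps13 and Rps16.

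The paralog copies lie on other chromosomes than the genes they are named for, and 7 of 10 had an end inside a zone (70.0%, 39.7 to 89.2%), against 32.4% of all protein-coding genes and 19.2% of those under 5 kb. Rpl7l1 lay inside, 4.844 kb from its breakpoint, while Rpl7 lay 272.3 kb outside any zone. Rpl37rt lay 60.73 kb outside, while Rpl37 lay inside, 6.36 kb from its breakpoint. Rpl32l lay just inside a zone and Rpl32 just outside one. For other pairs both genes were inside: Rpl22l1 and Rpl22 lay 28.08 and 28.94 kb from different breakpoints, Rpl3l and Rpl3 39.33 and 12.09 kb, and Rps27l and Rps27rt 48.98 and 19.87 kb, with Rps27 at 15.85 kb. Rpl36al lay inside a zone, and Rpl10l and Rpl39l lay 757.6 and 199.1 kb outside, and all 3 are named for genes on chromosome X.

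Ribosomal protein genes have left many processed pseudogenes, copies of their messenger RNAs set into the genome at other sites, and these had a lower share at zones than the genes. Of 281 annotated pseudogenes with a family symbol and a -ps ending, 60 (21.4%, 17.0 to 26.5%) had an end inside a zone, against 1341 of 9224 pseudogenes of every kind (14.5%). Their median distance to the nearest zone was 99.51 kb (78.14 to 132.0 kb), against 187.4 kb for all pseudogenes. Large subunit pseudogenes stood at 38 of 181 (21.0%) and small subunit ones at 22 of 100 (22.0%). Copies of genes that themselves lie at zones were at zones in 28 of 139 cases (20.1%), and copies of genes outside zones in 29 of 130 (22.3%); for the rest the parent gene was not placed here. The largest set, 23 copies of Rpl31, had 2 inside zones, and 13 copies of Rps19 had 5. The pseudogene nearest to a breakpoint was Rplp2-ps1 on chromosome 12, at 0.249 kb.

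Genes that work with the ribosomal proteins were placed in the same way. Among ribosomal proteins whose symbols follow no Rpl or Rps rule, Rack1 had an end inside a zone and Fau lay 542.9 kb outside. Of 16 genes of RNA polymerase I and its factors, which transcribe ribosomal RNA, 9 were inside (56.2%, 33.2 to 76.9%). Among them were Ubtf, Rrn3 and Taf1c and the subunit genes Polr2e, Polr2f, Polr2k and Polr2l. The subunit genes Polr1a, Polr1b, Polr1c, Polr1d, Polr1e and Polr2h were all outside. Of 40 genes of ribosome assembly 19 were inside (47.5%, 32.9 to 62.5%), among them Npm1, Nop56 and Nop58, with Ncl and Fbl outside. Of 14 other genes whose messenger RNAs begin with a TOP tract 7 were inside (50.0%, 26.8 to 73.2%), among them the elongation factor genes Eef1a1 and Eef1b2, with Eef2 outside. Of 78 genes of mitochondrial ribosomal proteins, which build the separate ribosome of that organelle, 29 were inside (37.2%, 27.3 to 48.3%). The interval of the mitochondrial set holds the 32.4% of all protein-coding genes, and so does that of the other TOP genes. Those of the RNA polymerase I and ribosome assembly sets begin just above it, at 33.2 and 32.9%. The median gene lengths of these sets were 13.36 and 13.56 kb. Over all protein-coding genes of 5 to 20 kb the share inside zones was 32.9%, at the lower bound of the assembly set. The intervals of all sets cover counting error only, and no set was tested.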

How the data were processed

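The authors deposited 1 list of initiation zones, whose other values are distances in bp, for the wild-type OK-seq library; it holds no counts, so depth and precision per zone are unknown. Per the file headers, each entry gives a breakpoint bin, a minimum and a maximum on either side and their distances. The mm10 build and the tools Picard 2.8.2, SAMtools, BWA 0.7.13, Bowtie, Trim Galore 0.4.2 and bcl2fastq are named in the submitters' processing notes. What each tool did and how zones were called are steps not given in these sources.

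Genes came from the RefSeq table of GRCm38.p6, without 333 genes on scaffolds. A gene was inside a zone if an end lay between the outer bounds of its edge bins; a distance runs from the nearer end. Strand and start came from the first listed promoter of the RefSeq promoter table. A gene pointed away if its middle lay on the side of the breakpoint toward which it is transcribed. Shares have Wilson intervals, differences Newcombe intervals and medians order-statistic intervals (95%). Python 3.11.15, pandas 2.3.3, NumPy 2.4.6 and SciPy 1.17.1 were used, and the location step was tested on simulated data. With 1 library no test was made.

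The family, the gene lists and the comparisons were chosen with earlier results of these data known. Named were genes less than 5 kb from a breakpoint, the 4 farthest from zones per subunit, the 3 nearest an edge on either side, genes that share a zone, paralogs, the stalk genes and Rpsa; some genes that this rule picks are left out of the text and figures. Alternatives were other distances, zone sets and parts, start or middle of the gene, and the core alone. The core alone, and the other settings for direction in each subunit apart, were added after the data were seen. Protein identity of paralogs was not analysed here, and Polr1f, Polr1g and Polr1h were not placed.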

Additional observations from a re-analysis of the deposited data

How the results depend on the processing

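Recomputed under other settings, 58 shares and medians stayed within the 95% interval of the value reported, and the other 9 moved outside it. The intervals are wide in the smaller groups, at 52.7 to 90.4% for the direction of small subunit genes. The settings also share genes, so the tally is no measure of robustness. The share of ribosomal protein genes at zones became 69.0% within 50 kb of a zone (66.0% in the large subunit, all protein-coding genes 45.4%), 29.9% when zones narrower than the median were left out (24.5% in the large and 38.2% in the small subunit, all 20.1%) and 42.5% in the central part of each zone (35.8% in the large subunit, all 19.2%). The -ps pseudogenes reached 27.0% within 20 kb and 37.0% within 50 kb. These settings take in more or less of the genome by construction. The share transcribed away from the breakpoint stayed between 28.6 and 40.0% in the large subunit and between 70.6 and 85.7% in the small subunit. That of all protein-coding genes reached 75.1% for starts within 20 kb of the breakpoint, where the small subunit stood at 6 of 8. Long genes that start so near often count as away because their middle lies past the breakpoint. The unknown depth limits every position to what the list gives, and a single library leaves the spread between cultures unmeasured.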

Other observations

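Of the 8 S6 kinase genes left out by the symbol rule, 5 had an end inside a zone (62.5%, Wilson 95% interval 30.6 to 86.3%), against 32.4% of all protein-coding genes and 38.3% of those over 20 kb, with a median length of 43.26 kb against 3.183 kb for the ribosomal protein genes. Chromosome 19, which holds none of the 87 ribosomal protein genes, had the highest share of protein-coding genes with an end inside a zone of the 19 chromosomes, at 39.4%.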
